A study of Canis lupus familiaris with 7 samples.

Results

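The genes described are 7 components of blood coagulation and fibrinolysis (F3, TFPI, THBD, PROCR, PLAT, PLAU and PROS1) in the left ventricle of dogs on a low-salt diet and of control dogs. They are 7 of the 15115 genes named on the array and are read by 13 of its 43035 probe sets, namely every probe set whose single gene symbol in the platform annotation is one of the 7. A probe set is a group of short probes that are read together as 1 value. The members were chosen by their role in the pathway with the low-salt against control differences of these arrays already in view, the higher F3 signal among them. Those differences are therefore given as a description, without p-values or counts by p, and nothing is inferred from them.

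Adult male mongrel dogs received food with 0.5% sodium chloride for 2 weeks, and total RNA of the left ventricle was read on 1-colour Affymetrix canine arrays. The groups are 4 low-salt samples (numbered 1 to 4) and 3 control samples (numbered 1, 3 and 4), all from males. No source used here gives the salt content of the control food. The design text counts 10 dogs of 25 to 28 kg on the diet, and how the 4 low-salt arrays relate to them, or whether RNA was pooled, is not stated. Nothing in the labels says that the samples of a group came from different animals, and p-values then cover only the spread between these samples, which may be technical.

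Coagulation starts when tissue factor, the product of F3, meets factor VII of the blood, and it ends with thrombin cutting fibrinogen into fibrin. Vessel walls hold this back in several ways. Tissue factor pathway inhibitor (TFPI) blocks the tissue factor complex, and thrombomodulin (THBD) and the endothelial protein C receptor (PROCR) help to activate protein C, whose cofactor is protein S (PROS1). Fibrin is dissolved by plasmin, which tissue plasminogen activator (PLAT) and urokinase (PLAU) make from plasminogen. The heart is known as a tissue rich in tissue factor, which cardiac muscle cells make, whereas thrombomodulin, the protein C receptor and tissue plasminogen activator are best known from endothelium.

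All values are log2(intensity + 16) after quantile normalization unless intensity is named, and differences are low salt minus control on that scale, which understates changes of dim probe sets. A probe set with no signal would sit at 4 before normalization. Of the 13 probe sets 9 entered the fit over all 28616 tested probe sets. The other 4, which include the only ones of PROCR and PLAU, were among the 14308 dimmest of the array and were not tested. Levels of different probe sets cannot be compared with each other, so no order among the 7 genes is given.

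The bright F3 probe set gave a clear tissue factor signal, higher in every low-salt sample than in any control. In the dimmer F3 probe set the groups overlapped, and control 1 was the highest array. The bright probe sets of the inhibitor TFPI and of thrombomodulin differed by -0.03 and -0.01. Those values moved with the scaling, to -0.15 and -0.41 with the intensities as deposited and to 0.28 and 0.02 with array medians set equal, and the dimmer probe sets of both genes differed by -0.14 and -0.52. PLAT stood slightly higher in low salt. Protein S gave different answers with its 4 probe sets, and PROCR and PLAU were near the bottom of the scale. Of the 13 probe sets 7 had a difference above 0 and 6 below 0, with a median of 0.01, against a median of 0.04 over all tested probe sets.

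**Figure D1:**
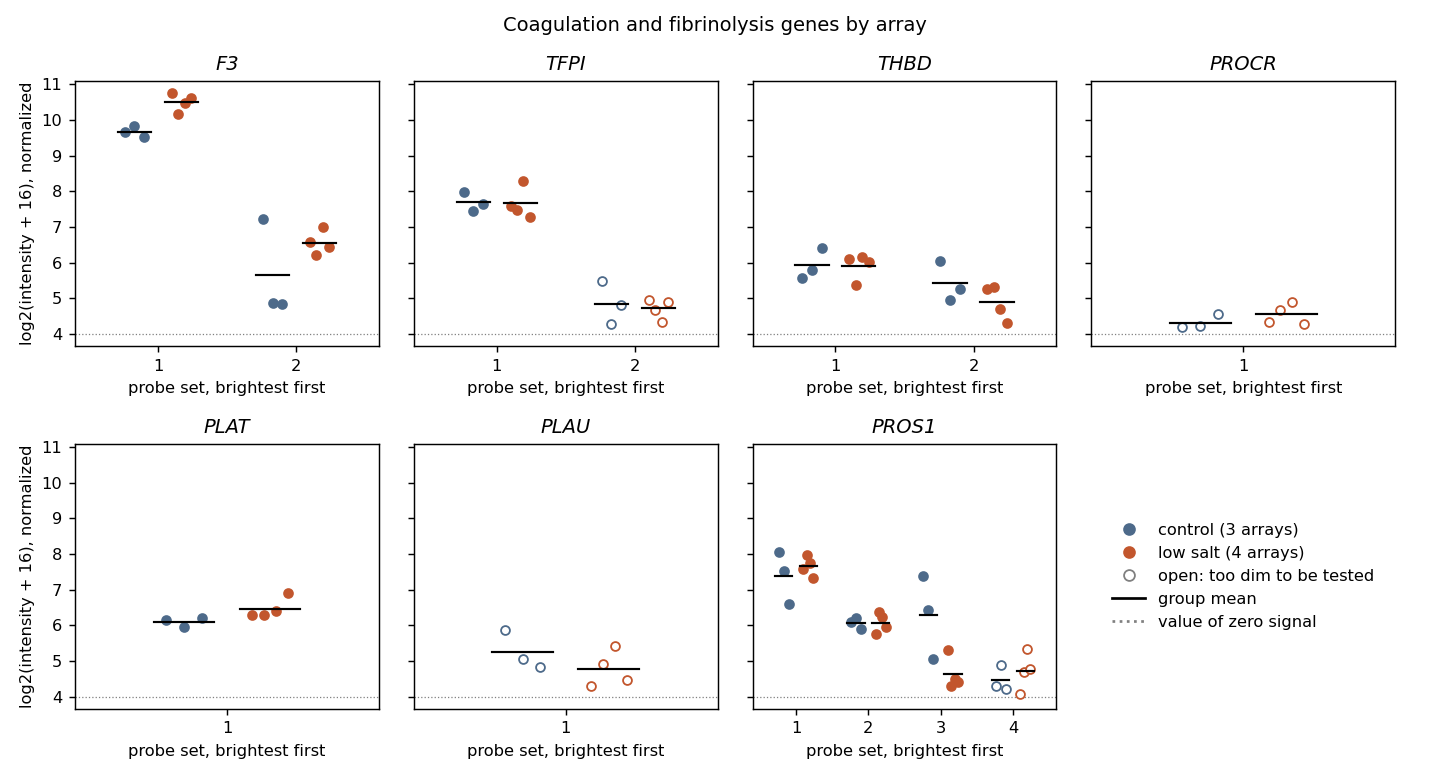
Normalized log2(intensity + 16) of the 13 probe sets by array, 1 panel per gene, with 3 control arrays (blue), 4 low-salt arrays (orange) and group means (black bars); open symbols were too dim to be tested. The groups are apart in the brightest F3 probe set (controls up to 9.83, low salt from 10.16) and narrowly in PLAT (6.20 and 6.28), and they overlap in the other 11 probe sets.

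F3 encodes tissue factor, the membrane receptor that starts coagulation. Its bright probe set, Cfa.16548.1.S1_at, had deposited intensities of 769, 890 and 647 in controls 1, 3 and 4. In low-salt samples 1 to 4 they were 1848, 1201, 1306 and 1706. The lowest low-salt sample (number 2) lay well above the highest control (number 3), so the groups did not overlap. After normalization the controls stood at 9.67, 9.83 and 9.51 and the low-salt samples at 10.75, 10.16, 10.48 and 10.60. The means were 9.67 ± 0.16 (SD, n = 3) and 10.50 ± 0.25 (SD, n = 4), a difference of 0.83 ± 0.18 (SE) or 1.77-fold. Of all tested probe sets 3.78% had a larger positive difference. Leaving out any 1 of the 7 arrays gave an F3 difference between 0.74 and 0.94.

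The other F3 probe set, CfaAffx.30786.1.S1_s_at, was dimmer, with intensities of 146, 13.3 and 21.5 in controls 1, 3 and 4 and of 65.2, 43.8, 128 and 51.0 in low-salt samples 1 to 4. Control 1 was the highest of all 7 arrays, whereas controls 3 and 4 were the lowest, so the groups overlapped. The normalized means were 5.65 ± 1.36 (SD, n = 3) and 6.55 ± 0.34 (SD, n = 4), and the difference was 0.91 ± 0.50 (SE). It became 1.69 without control 1, and 0.52 and 0.51 without control 3 and control 4. The differences of both F3 probe sets were of like size, but the SD among controls was 1.36 for the dim one and 0.16 for the bright one.

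TFPI encodes the inhibitor of the tissue factor complex. Its bright probe set, CfaAffx.22727.1.S1_s_at, stood at 7.99, 7.44 and 7.65 in controls 1, 3 and 4 and at 7.58, 7.47, 8.30 and 7.28 in low-salt samples 1 to 4. Low-salt 3 was the highest and low-salt 4 the lowest of the 7 arrays, so the low-salt group spanned all controls. The difference was -0.03 ± 0.29 (SE), which compares with a low-salt SD of 0.45. The second TFPI probe set, Cfa.3782.1.S1_at, was too dim to be tested (intensities from 3.03 to 36.4) and differed by -0.14. With 1 array left out, the sign of the bright probe set turned without control 1 (0.11), low-salt 2 (0.03) and low-salt 4 (0.09).

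THBD encodes thrombomodulin, the endothelial receptor that turns thrombin toward activating protein C. Its brighter probe set, CfaAffx.8681.1.S1_s_at, read 5.58, 5.80 and 6.40 in controls 1, 3 and 4 and 6.09, 5.38, 6.17 and 6.02 in low-salt samples 1 to 4. The highest array was control 4 and the lowest low-salt 2, and the difference was -0.01 ± 0.34 (SE). The dimmer one, Cfa.16238.1.S1_at, read 6.04, 4.95 and 5.27 in controls and 5.25, 5.32, 4.71 and 4.32 in low salt. Here control 1 was highest and low-salt 4 lowest, and the difference was -0.52 ± 0.41 (SE), or -0.21 without control 1. The 2 probe sets did not follow each other over the arrays, with a root mean square difference of 0.71 between their profiles once each was centred on its mean.

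PROCR encodes the endothelial receptor that presents protein C to thrombomodulin. Its single probe set, CfaAffx.12741.1.S1_at, had intensities of 2.67, 2.30 and 12.7 in controls 1, 3 and 4 and of 2.76, 6.24, 19.8 and 1.70 in low-salt samples 1 to 4. These lie at the bottom of the scale, since 9.5% of the probe sets had a lower mean, and the groups overlapped. The difference of 0.23 became 0.77 with an offset of 1 in place of 16 and 0.08 with an offset of 64, so its size depends on the offset. No detection calls were used here, so the file does not tell whether the transcript was present.

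PROS1 encodes protein S, the plasma cofactor of activated protein C and of TFPI. It is read by 4 probe sets, which disagreed. The brightest, Cfa.14413.1.S1_at, read 8.06, 7.53 and 6.59 in controls 1, 3 and 4 and 7.59, 7.96, 7.76 and 7.32 in low-salt samples 1 to 4. Control 1 was the highest and control 4 the lowest array, so the controls enclosed all low-salt samples. The difference of 0.26 ± 0.33 (SE) turned to -0.14 without control 4 and was 0.60 without control 1. The next, CfaAffx.14233.1.S1_s_at, was nearly level, with 6.06 ± 0.15 (SD, n = 3) in controls, 6.08 ± 0.27 (SD, n = 4) in low salt and a difference of 0.01 ± 0.30 (SE).

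The third protein S probe set, CfaAffx.14225.1.S1_at, went the other way. Its intensities were 165, 68.9 and 29.5 in controls 1, 3 and 4 and 15.9, 2.21, 9.99 and 2.84 in low-salt samples 1 to 4. Every low-salt intensity was below every control, but after normalization control 4 (5.07) and low-salt 1 (5.30) crossed. The normalized means were 6.29 ± 1.17 (SD, n = 3) and 4.63 ± 0.45 (SD, n = 4), a difference of -1.67 ± 0.50 (SE), with a range from -2.28 (without control 4) to -1.12 (without control 1). The dimmest, CfaAffx.14221.1.S1_at, was not tested and differed by 0.25. The centred profile of the third probe set lay 1.05 to 1.28 (root mean square) from those of the other 3, which lay 0.31 to 0.53 from each other. Averaged over its 4 probe sets PROS1 differed by -0.29, against 0.26 for the brightest alone.

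PLAT encodes tissue plasminogen activator, the endothelial enzyme that starts fibrin breakdown. Its single probe set, CfaAffx.9314.1.S1_s_at, read 6.14, 5.94 and 6.20 in controls 1, 3 and 4 and 6.28, 6.30, 6.39 and 6.90 in low-salt samples 1 to 4. All low-salt values were above all controls, but the gap between the groups was 0.08 and low-salt 4 stood apart above the rest. The difference was 0.37 ± 0.29 (SE), and 0.23 without low-salt 4. The deposited intensities did not separate, with medians of 67.9 in controls and 66.9 in low salt, and the difference without normalization between arrays was 0.00. F3 and PLAT gave the 2 of 9 tested probe sets whose groups did not overlap, both higher, where 5.13% of all tested probe sets were higher in that way and 10.8% apart in either direction.

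PLAU encodes urokinase, the other plasminogen activator, known from leukocytes and repairing tissue. Its single probe set, Cfa.127.1.S1_s_at, was too dim to be tested. It had intensities of 54.2, 17.5 and 20.3 in controls 1, 3 and 4 and of 2.34, 9.57, 37.5 and 3.21 in low-salt samples 1 to 4. By intensity low-salt 3 lay among the controls and the other low-salt samples below them. After normalization low-salt 2 (4.92) also stood above control 4 (4.82). The difference was -0.48, and it ran from -0.70 (without control 4) to -0.16 (without control 1). With an offset of 1 in place of 16 it was -1.02 and with an offset of 64 it was -0.20, so its size, like that of PROCR, depends on the offset.

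**Figure D2:**
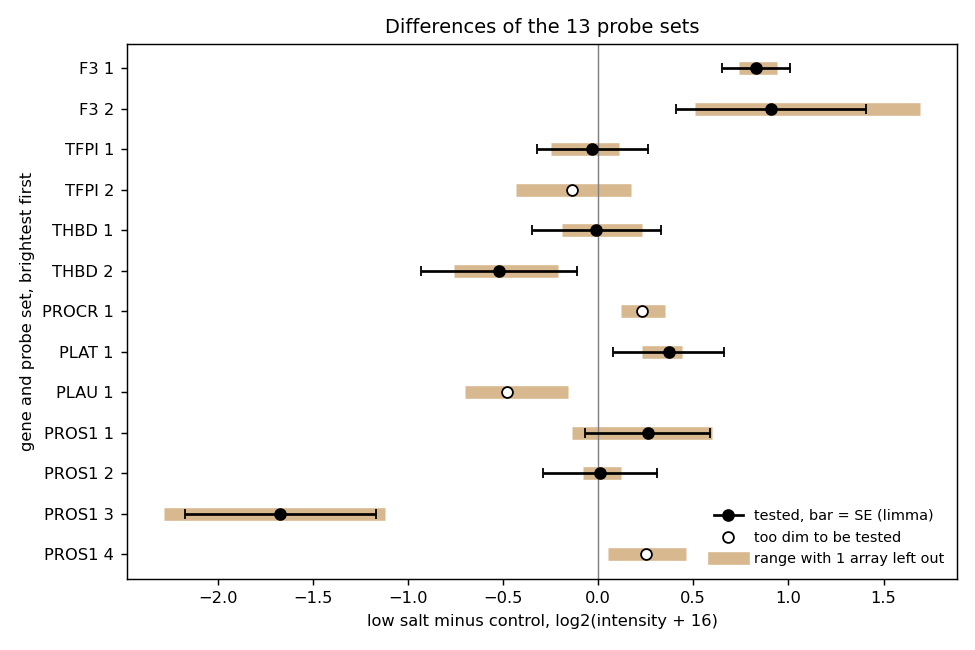
Low salt minus control for each of the 13 probe sets on the log2(intensity + 16) scale, with the limma SE for those tested (filled) and none for those too dim to be tested (open); the wide bars give the range with 1 of the 7 arrays left out. The F3 differences (0.83 and 0.91) lie to the right of 0 over their whole ranges, and the third PROS1 probe set (-1.67) lies to the left. The ranges of both TFPI probe sets, the brightest of THBD and the brightest and second of PROS1 cross 0.

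The array signals had not been fully aligned by the deposited scaling: array medians differed by up to 0.93. They were 5.57 to 6.07 in the controls and 5.14 to 5.24 in low-salt 1, 2 and 4, all below the controls, while low-salt 3 stood at 5.91. The part of this difference in the members' values was not tested beyond the scalings given here. Over the whole array limma called 0.346% of the tested probe sets at an adjusted p under 0.05. Quantile normalization left a median shift of 0.04 over all tested probe sets, against -0.18 without any and 0.26 when array medians were made equal. The F3 difference exceeded that shift by 0.79, 1.13 and 1.13 in these 3 scalings. For TFPI the distance from the shift was -0.07, 0.03 and 0.03, and for THBD -0.05, -0.23 and -0.24. For PLAT it was 0.33, 0.18 and 0.18, for PROS1 (brightest) 0.22, 0.26 and 0.26, for PROCR 0.19, 0.26 and 0.26, and for PLAU -0.52, -0.56 and -0.56. Relative to the shift, TFPI was the 1 gene of the 7 that changed side among these 3 scalings. Without both low-salt 3 and control 4, the array of highest median in each group and an alternative chosen after seeing the data, PLAU went from -0.48 to -0.91 and the brightest PROS1 probe set from 0.26 to -0.17. In that setting F3 differed by 0.75 (its dimmer probe set by 0.36), TFPI by -0.27, THBD by 0.14, PROCR by 0.23 and PLAT by 0.46.

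**Figure D3:**
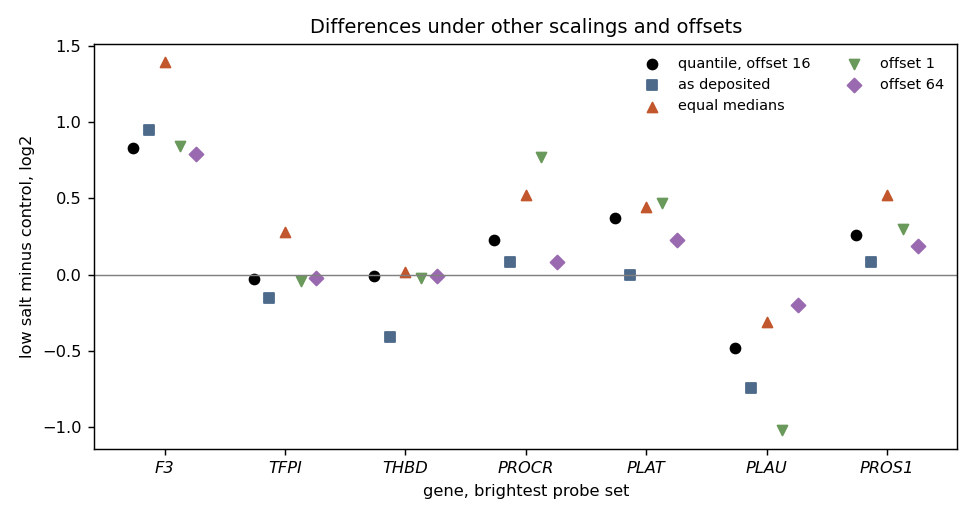
Low salt minus control of the brightest probe set of each gene (log2) with quantile normalization, as deposited, with equal array medians, and with offsets of 1 and 64 in place of 16. F3 lies between 0.79 and 1.39 in all 5 settings, PLAU stays below 0, and TFPI and THBD lie on both sides of 0.

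Markers of the cell types that make these proteins were measured beside them. The cardiac muscle markers that define the tissue were bright, with 7 of 8 on the array, and their summed intensity ran from 58716 to 93213 in controls and from 57400 to 79072 in low salt. The 9 endothelial markers (8 tested) had summed intensities of 6003 to 8679 and of 6167 to 8319, a median difference of -0.01, and 0 of them kept the groups apart. Macrophage markers, whose cells can make tissue factor, had 7 of 8 genes above 0, where 56% of all tested genes were, and a median difference of 0.24 against 0.05 over all tested genes. Their summed intensities were 2950 to 4950 in controls and 3948 to 4658 in low salt, and 0 kept the groups apart. Fibroblast markers (7) ran from 11487 to 20788 and from 14894 to 20210. Smooth muscle markers (5) ran from 588 to 1223 and from 853 to 1360, with a median difference of 0.38. CNN1 (calponin), LMOD1 and TAGLN differed by 1.19, 0.71 and 0.38, but MYH11 and ACTA2 by -0.31 and -0.07. Only CNN1 was higher without overlap, from dim control intensities of 8.18 to 13.3. Of all tested genes 10.6% had groups apart in either direction. The part of any cell type in the F3 difference was not tested, and in whole ventricle more cells of a type cannot be told apart from more RNA per cell.

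Markers of blood and liver were also measured, and their levels cannot be compared with those of other cell types. The 5 platelet markers on the array summed to 167 to 222 in controls and 44.3 to 272 in low salt. Of 5 red cell markers listed, only 2 are on the array (ALAS2 and SLC4A1, neither a globin). They summed to 47.5 to 103 and 27.5 to 103. The 6 liver markers summed to 263 to 543 and 152 to 533. Median intensities in controls and low salt were 4.21 and 5.55 for albumin (ALB), 80.8 and 83.0 for APOA1 and 116 and 54.9 for SERPINA1. Transthyretin (TTR) was lower in low salt without overlap, by -0.68. The 2 mesothelial markers on the array were all too dim to be tested. Of the 2 atrial markers, MYL7 differed by 0.39 and MYL4 by -2.14 ± 0.65 (SE, limma adjusted p = 0.258), a 4.40-fold lower mean with overlapping groups. MYL4 intensities were 1520, 3616 and 477 in controls 1, 3 and 4 and 96.5, 172, 438 and 1098 in low-salt samples 1 to 4. The sums of both atrial markers overlapped (2683 to 7147 and 3387 to 5778), and their part in the members' differences was not tested.

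A measure of RNA integrity, the 3' to 5' signal ratio of GAPDH control probe sets, separated the groups, with every low-salt array below the controls. It was 2.43 to 2.78 in controls and 2.03 to 2.41 in low salt with 1 pair of probe sets, and 22.7 to 40.9 and 14.5 to 22.6 with another. Both had an exact two-sided permutation p of 0.0571 over the 35 splits of 7 arrays, while the actin ratio had an exact permutation p of 0.457. The part of RNA integrity in the F3 and PROS1 differences was not tested.

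Other genes of the pathway were taken from a list of 67, ordered by role and drawn up with earlier results of these arrays known. The counts by p and the shares beside them therefore only describe this list. They are no test of the pathway, and no excess over all genes is inferred from them. Of these, 56 are named on the array and 42 were tested, with 1 probe set per gene (the brightest). An unadjusted p under 0.05 by limma was found for 7 of the 42 (16.7%, 3 higher and 4 lower), against 10.5% of all 11381 genes tested (5.57% higher and 4.89% lower). The median difference of the 42 was 0.01, against 0.05 over all genes, with 21 of them above 0, where 56% of all genes were. The groups did not overlap in 6 of the 42, where 10.6% of all genes showed this. The genes past an adjusted p of 0.05 by limma were GNA12 and NFKBIA, where 0.281% of all genes passed.

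**Figure D4:**
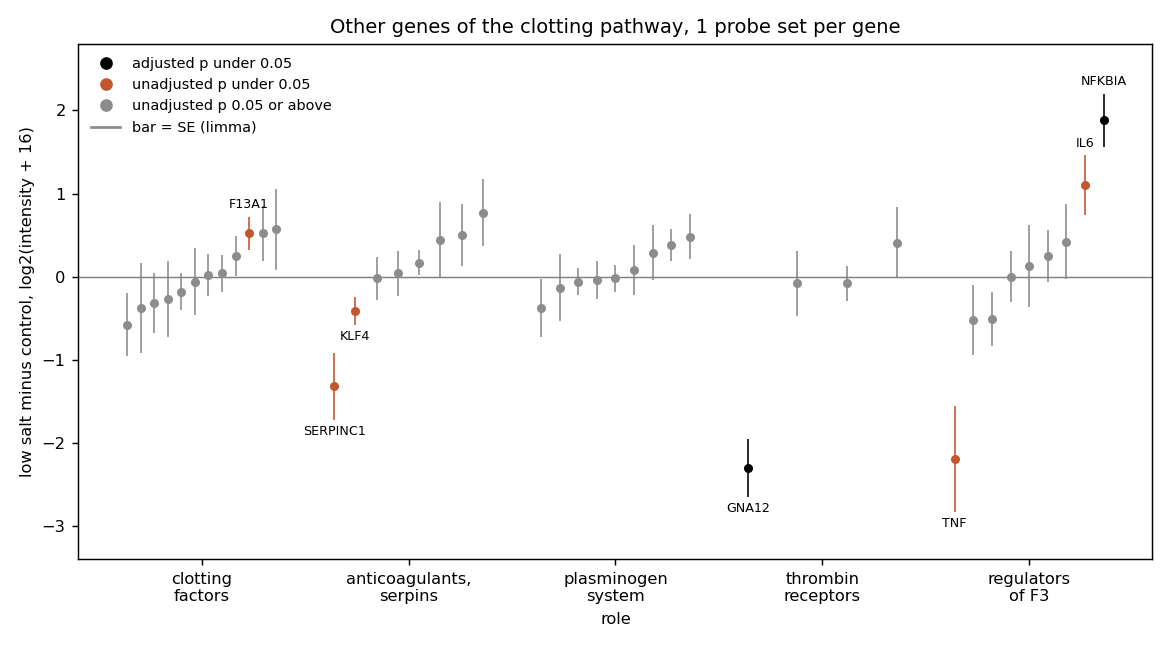
Low salt minus control of the 42 other pathway genes tested, 1 point per gene with the limma SE, by role, on the log2(intensity + 16) scale; black points passed an adjusted p of 0.05 and orange ones an unadjusted p of 0.05. The 2 black points are GNA12 (-2.30) and NFKBIA (1.88), and the plasminogen system has no coloured point.

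Among clotting factors and their helpers, 12 of 22 genes were tested, 1 was higher and 0 lower at an unadjusted p under 0.05, and the median difference was -0.02. F13A1, the A subunit of factor XIII that crosslinks fibrin and is made by macrophages, read 8.69, 8.84 and 8.42 in controls 1, 3 and 4 and 8.95, 9.35, 9.07 and 9.29 in low-salt samples 1 to 4. All low-salt values were above the controls, and the difference was 0.52 ± 0.20 (SE, limma adjusted p = 0.380), but the other F13A1 probe set differed by -0.06. Von Willebrand factor (VWF), the endothelial protein that tethers platelets and carries factor VIII, differed by -0.18 ± 0.22 (SE, limma adjusted p = 0.811). The contact factor prekallikrein (KLKB1) differed by -0.58 ± 0.38 and LMAN1, which carries factors V and VIII out of the endoplasmic reticulum, by 0.52 ± 0.33. F7, the plasma partner of tissue factor, and F10, its substrate, were too dim to be tested.

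Among natural anticoagulants and their regulators 8 of 13 genes were tested, 0 were higher and 2 lower at an unadjusted p under 0.05, and the median difference was 0.10. Antithrombin (SERPINC1), the plasma inhibitor of thrombin and factor Xa, read 6.42, 6.47 and 5.39 in controls and 4.25 to 5.17 in low salt. The groups did not overlap, and the difference was -1.32 ± 0.40 (SE, limma adjusted p = 0.252), while its 3 other probe sets differed by 0.18, -0.05 and 0.00. KLF4, a transcription factor of quiescent endothelium that induces thrombomodulin, was bright at 10.92 ± 0.33 (SD, n = 3) and 10.51 ± 0.11 (SD, n = 4). Every low-salt value lay below the controls, with a difference of -0.41 ± 0.17 (SE, limma adjusted p = 0.400), or -0.23 without control 1, and its other probe set differed by -0.17. The gap between the groups was 0.04, and the deposited KLF4 intensities overlapped, with 1640 in low-salt 1 above 1592 and 1604 in controls 3 and 4. The protein C inhibitor SERPINA5 differed by 0.77 ± 0.40 (SE) but its 3 other probe sets by -0.28, -0.50 and -0.01. Protein C itself (PROC), the substrate of the thrombomodulin complex, was too dim to be tested and differed by 0.66.

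The plasminogen system had 9 of 14 genes tested, 0 at an unadjusted p under 0.05, and a median difference of -0.02. Neuroserpin (SERPINI1), an inhibitor of tissue plasminogen activator, differed by 0.38 ± 0.19 (SE, limma adjusted p = 0.477), and its 3 other probe sets by -0.06, -0.52 and -0.14. The plasminogen receptor PLGRKT differed by 0.48 ± 0.27, the fibrinolysis inhibitor CPB2 by -0.38 ± 0.35, and annexin A2 (ANXA2), which binds plasminogen and PLAT on endothelium, by -0.06 ± 0.16. PLAUR, the urokinase receptor, is not among the probe sets named here.

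Of the thrombin receptors and the G proteins that serve them, 4 of 7 were tested. At an unadjusted p under 0.05 (limma) 0 were higher and 1 lower, and the median difference was -0.08. The G protein subunit GNAQ was too dim to be tested and differed by -1.09, with every low-salt value below the controls. F2RL1 and F2RL3, also not tested, differed by 0.09 and 0.21 with overlapping groups. The receptor F2R (PAR1) differed by -0.08 ± 0.39 (SE), F2RL2 (PAR3) by -0.08 ± 0.21 and the G protein subunit GNA13 by 0.41 ± 0.43. GNA12, a G protein alpha subunit that such receptors can couple to, read 7.55, 7.58 and 6.75 in controls and 4.38, 4.96, 5.38 and 5.25 in low salt. That probe set fell by 2.30 ± 0.35 (SE, limma adjusted p = 0.0162) with no overlap, while the other GNA12 probe set differed by -0.26. GNA12 passed with 2 of the 7 arrays left out in turn, those being control 4 and low-salt 3, and adjusted p without 1 array ran from 0.00398 to 0.131. Averaged over its probe sets it differed by -1.28 (adjusted p = 0.231).

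The regulators of F3 transcription and the cytokines that induce it had 9 of 11 genes tested, with 2 higher and 1 lower at an unadjusted p under 0.05 and a median difference of 0.13. NFKBIA, the inhibitor that NF-κB itself induces, read 4.79, 5.26 and 4.98 in controls and 7.29, 7.05, 6.33 and 6.89 in low salt. It rose by 1.88 ± 0.32 (SE, limma adjusted p = 0.0296), and with 1 array left out it passed only without control 4 and without low-salt 3, with adjusted p from 0.0152 to 0.156. Interleukin 6 (IL6) differed by 1.10 ± 0.36 (SE, limma adjusted p = 0.301) from a dim control level of 4.60 ± 0.50 (SD, n = 3). Tumour necrosis factor (TNF), which induces tissue factor in endothelium and monocytes, differed by -2.19 ± 0.64 (SE, limma adjusted p = 0.246), and its other probe sets by 0.80 and 0.04. TNF passed in the fit without low-salt 3, where it differed by -2.85. Of the listed transcription factors, EGR1 differed by 0.13 ± 0.49 (SE), FOS by 0.25 ± 0.31, JUN by 0.00 ± 0.31, the NF-κB subunit NFKB1 by 0.42 ± 0.45 and FOSL1 by -0.51 ± 0.32. The NF-κB subunit RELA and SP1 were too dim to be tested and differed by -0.54 and -0.57. Interleukin 1 beta (IL1B), the remaining gene of this role, differed by -0.52 ± 0.42 (SE).

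Among the 11381 genes with a tested probe set, those whose centred profile over the 7 arrays lay nearest to that of the bright F3 probe set were ERBB2 (root mean square difference 0.08), SLC41A2 (0.09) and PHRF1 (0.13). These profiles include the difference between the groups, so a near profile has a like difference by construction. The nearest to TFPI were EML4, HGH1 and TSPAN31 (0.13 to 0.15), and to THBD TOP2B, DOLK and CLCN3 (0.07 to 0.09). For the brightest PROS1 probe set they were CCDC13, IFT81 and SPC25 (0.13 to 0.15), and for PLAU SIRT7, CEP128 and SS18L1 (0.14 to 0.18). PLAT and PROCR had a range under 1 over the arrays, and their nearest genes are not given.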

How the data were processed

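Left ventricle RNA was extracted with Trizol and labelled with biotin, per the labels' protocols. The authors deposited intensity values made with GCOS, per the submitters' processing notes; no source used here gives its version, the summarisation or the build. Each array's 2% trimmed mean was 150 to 150.1. From these, log2(intensity + 16) was quantile normalized over the 42924 probe sets that are not array-maker controls (111 left out). The 14308 dimmest by mean over all arrays (33.3%) were not tested. limma 3.58.1 in R 4.3.3 (lmFit, eBayes with a trend) compared low salt with control over 28616 probe sets, adjusted by Benjamini-Hochberg, without covariates; the code was tested on simulated data. No 2 arrays held identical values. Arrays carry no read depth, so their number limits the precision. Symbols came from the platform annotation (29254 probe sets with 1 symbol, 439 several, 13231 unnamed); all 7 members matched the RefSeq gene table by gene number. The members, lists and tests were chosen with earlier results of these data known. Named were every probe set of the members, the 3 genes of smallest p per role, further pathway genes whatever their p (PLAUR, VWF, F2R, PROC, SERPINC1, ANXA2, and 1 that is not reported here) and the 3 nearest profiles of each member with a range of at least 1; other names were chosen after their values were seen. Alternatives were other offsets, scalings and filters, array weights, no variance trend, gene means, the replicate number as a block, each array left out and the methods' t-test (p of 0.05 with a 2-fold change), for which the design text also names variance stabilization, not repeated here.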

Additional observations from a re-analysis of the deposited data

Results flagged for a closer look

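Of 121 probe sets examined (the 13 of the members, 1 for each of the 56 other pathway genes on the array and 1 for each of 52 further marker genes), 11 had a low-salt sample far from the other 3. Chance alone flags about 1 in 20 such groups, and groups of 3 controls were not examined. None of the 13 probe sets of the 7 coagulation genes was singled out in this way. Low-salt 3 was the sample apart in TNF (7.19, the others at 4.27 to 4.72), fibrinogen beta (FGB, 6.77 against 4.78 to 5.10), SERPINA1 (7.81 against 6.30 to 6.47) and LMOD1 (6.95 against 6.22 to 6.32), where it was high. After normalization it was low in F12 (4.17 against 4.45 to 4.48) and GGCX (5.48 against 6.06 to 6.10). By deposited intensity, however, low-salt 3 was the highest low-salt sample in GGCX (40.5 against 33.7 to 39.0). F12 was too dim to be tested, with intensities of 3.26 in low-salt 3 and 3.44 to 4.03 in the other low-salt samples. Low-salt 4 was high in RELA (5.11 against 4.36 to 4.41) and WT1 (5.50 against 4.23 to 4.41) and low in S100A10 (10.25 against 10.55 to 10.59). Low-salt 1 was high in SP1 (5.81 against 4.15 to 4.22), and low-salt 2 was low in LUM (12.72 against 13.13 to 13.20).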

How the results depend on the processing

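Over the offsets, scalings, array weights, gene means and left-out arrays, the difference of the bright F3 probe set ran from 0.74 to 1.39 and that of PLAU from -1.02 to -0.16, whereas TFPI, THBD and PROS1 changed sign in some. The dimmer F3 probe set ran from 0.51 to 1.69 with 1 array left out and was 0.36 without both low-salt 3 and control 4. The filters and the variance trend cannot move a difference of means. The wider list had 7 of 42 genes at an unadjusted p under 0.05 (limma), and from 4 (gene means) to 9 (no filter) in the other settings. The number of listed genes tested differed with the filter, with all 56 on the array tested without it. These counts therefore cannot be compared directly. The list's median difference of 0.01 became 0.47 with array medians set equal, where the median over all tested probe sets was itself 0.26. With 1 array left out the list's median ran from -0.04 to 0.13. The 99 probe sets past an adjusted p of 0.05 (limma) became 39 with an offset of 1, 165 as deposited, 27 without the filter, 68 above the median signal, 177 with array weights, 19 without the variance trend, 4 by the methods' t-test and 297 without both low-salt 3 and control 4. With 1 array left out they ran from 21 (without control 1) to 261 (without control 4). The cause of these changes was not tested. The replicate number as a block, which leaves low-salt 2 without a partner and so gives the differences of the fit without it (F3 0.94), gave 27, and neither GNA12 nor NFKBIA passed with it (adjusted p of 0.140 and 0.291). Same-numbered samples of both groups did not deviate together (correlations of 0.074, -0.264 and -0.18 for numbers 1, 3 and 4), so the numbers were not taken as pairs; the largest correlation, 0.434, was that of control 4 with low-salt 3. GNA12 and NFKBIA also failed without the filter, without the variance trend and by the methods' t-test, and GNA12 with an offset of 1 and with gene means. At the design text's threshold the methods' t-test gave 871 probe sets. At a Benjamini-Hochberg adjusted p under 0.05, with no limit on the fold change, it gave 4.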
